A study of Mus musculus with 20 samples.

Results

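Transcript levels of the 8 genes of the urea cycle, Cps1, Otc, Ass1, Asl, Arg1, Nags, Slc25a13 and Slc25a15, were examined in mouse liver. They were taken by gene symbol from a table of 38924 genes, each symbol matched 1 row, and all 8 passed the filter on low values that left 14524 genes for testing (FPKM, fragments per kilobase of gene scaled to the size of the library, above 0.5 in at least 5 libraries). The 20 libraries came from 20 male mice, 5 per group: C57BL/6J wild type mice on control diet (NDWT), mice with a germline disruption of Thbs1, the gene of thrombospondin-1 (TSP-1), on control diet (NDKO), and the same genotypes on CDAHFD, a choline deficient high fat diet with defined amino acids (HFWT and HFKO). Mice were obtained at 5 weeks of age and acclimatized for 1 week, the diets ran for 12 weeks, and poly(A) RNA of whole liver tissue was sequenced. The disruption is present in every cell of the body, so it does not single out a liver cell type. C57BL/6J and TSP-1 null mice were each purchased, the null mice as a separate stock, and they are not described as littermates. Genotype and line of origin therefore cannot be told apart. The diets differ in more than choline, and these differences cannot be told apart.

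The urea cycle turns ammonia and the amino group of aspartate into urea, and it runs mainly in hepatocytes near the portal vein. In the mitochondrion NAGS makes N-acetylglutamate, which switches on CPS1, the enzyme that builds carbamoyl phosphate from ammonia and bicarbonate, and OTC joins carbamoyl phosphate to ornithine to give citrulline. The carrier SLC25A15 (ORC1) brings ornithine in and takes citrulline out, and SLC25A13 (citrin) sends aspartate to the cytosol, where ASS1 joins it to citrulline, ASL splits the product into arginine and fumarate, and ARG1 releases urea and returns ornithine. Expression of these enzymes is known to follow protein intake, glucagon and glucocorticoids.

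Libraries held 15641545 to 23276322 fragments assigned to genes (median 18950482.5), a number recovered from FPKM and gene length, and the members had from 691 fragments (Nags) to 153033 fragments (Cps1) per library. Thbs1 was read as a check of the genotype labels. It lay at 0.058 to 0.326 FPKM (6 to 33 fragments) in NDWT and at 0.986 to 1.90 FPKM (112 to 207 fragments) in NDKO. On control diet each NDKO library thus exceeded each NDWT library (limma log2FC 2.28, FDR 1.02e-05), so Thbs1 did not bear out the labels. On CDAHFD it did not separate the labels (3.46 to 6.10 FPKM in HFWT, 3.05 to 4.40 FPKM in HFKO, log2FC −0.39, FDR 0.408). The table has 1 value per gene, and exons of the disrupted allele could not be looked at. Transcripts of a disrupted and of an intact allele therefore cannot be told apart. Genotype is therefore used below as the libraries were labelled, and each genotype direction is that of the library labelled TSP-1 null against the library labelled WT. The hepatocyte marker Alb (albumin) lay at 16870 to 34843 FPKM in all 20 libraries.

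On GRCm38, Nags (ENSMUSG00000048217.5) lies on chromosome 11 at 102145513 to 102149477, plus strand, Cps1 (ENSMUSG00000025991.8) on chromosome 1 at 67123026 to 67231259, plus strand, and Otc (ENSMUSG00000031173.7) on chromosome X at 10252305 to 10321024, plus strand. Ass1 (ENSMUSG00000076441.4) lies on chromosome 2 at 31470207 to 31520672, plus strand, 86.6 Mb from Thbs1 on the same chromosome. Asl (ENSMUSG00000025533.9) lies on chromosome 5 at 130011258 to 130025132 and Arg1 (ENSMUSG00000019987.8) on chromosome 10 at 24915208 to 24927470, both on the minus strand. The carrier genes Slc25a15 (ENSMUSG00000031482.8, chromosome 8, 22375554 to 22398621) and Slc25a13 (ENSMUSG00000015112.9, chromosome 6, 6041218 to 6217118) are also on the minus strand. Each position spans the exons and introns of the gene. The start of Nags overlaps Gm11586, a gene on the opposite strand with 4 to 20 fragments per library. The strand setting of the counting is not given in the sources used here, so reads of this pair cannot be told apart.

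Promoter sequences, from 250 bases before to 50 bases after a RefSeq transcription start (GRCm38.p6), were found for 5 of the 8 genes, with 6 starts in all, and not for Cps1, Asl and Arg1. Those of Ass1, Slc25a15 (both starts) and Otc are shown, because Ass1 and Slc25a15 differed between groups of the study where Otc stayed below the threshold for a call. This choice followed the results. Capitals mark matches, on either strand, to GGGCGG (a GC box, in 35.7% of all 32851 promoters), CACGTG (an E-box, 7.15%), TGACG (the core of a cAMP response element, 20.8%), TTGCNNAA (a C/EBP motif, 10.8%) or CAAAGTNCA (an HNF4 motif, 1.41%).
Ass1, chr2:31470020-31470319, plus strand: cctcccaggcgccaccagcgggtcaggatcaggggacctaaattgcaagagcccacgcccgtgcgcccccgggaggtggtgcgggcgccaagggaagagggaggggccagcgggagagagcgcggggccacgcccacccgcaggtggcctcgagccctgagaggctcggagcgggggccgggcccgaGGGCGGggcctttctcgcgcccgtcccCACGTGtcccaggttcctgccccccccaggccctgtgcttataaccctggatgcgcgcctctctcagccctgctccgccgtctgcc
Slc25a15, upstream start, chr8:22398572-22398871, minus strand: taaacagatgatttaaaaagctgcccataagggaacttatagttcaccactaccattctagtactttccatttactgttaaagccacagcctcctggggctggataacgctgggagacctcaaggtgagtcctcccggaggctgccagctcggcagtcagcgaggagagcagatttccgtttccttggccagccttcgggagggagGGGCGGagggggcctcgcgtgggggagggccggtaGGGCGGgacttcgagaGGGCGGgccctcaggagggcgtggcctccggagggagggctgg
Slc25a15, downstream start, chr8:22398228-22398527, minus strand: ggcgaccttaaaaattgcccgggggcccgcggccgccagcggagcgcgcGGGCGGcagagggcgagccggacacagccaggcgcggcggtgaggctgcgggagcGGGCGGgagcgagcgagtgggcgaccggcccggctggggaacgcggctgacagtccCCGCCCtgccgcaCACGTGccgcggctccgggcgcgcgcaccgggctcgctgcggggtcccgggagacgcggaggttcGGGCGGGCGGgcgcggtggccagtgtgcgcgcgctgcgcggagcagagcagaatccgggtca
Otc, chrX:10252055-10252354, plus strand: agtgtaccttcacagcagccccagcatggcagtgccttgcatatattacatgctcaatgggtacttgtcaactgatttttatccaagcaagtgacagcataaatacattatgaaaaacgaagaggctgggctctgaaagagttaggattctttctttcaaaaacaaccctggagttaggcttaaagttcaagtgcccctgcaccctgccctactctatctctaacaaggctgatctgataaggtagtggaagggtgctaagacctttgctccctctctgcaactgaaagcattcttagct
The Ass1 window held 1 GC box and 1 E-box, the upstream window of Slc25a15 held 3 GC boxes, and its downstream window held 5 GC boxes, of which 2 overlap, and 1 E-box. The Otc window held none of the 5 motifs and was 44.3% G or C. Ass1 had 74.0%, and the upstream and downstream windows of Slc25a15 had 60.7% and 79.0%. The Nags window (57.7% G or C) held 2 GC boxes and 1 TGACG, and that of Slc25a13 (65.0%) held 1 E-box and 1 TGACG. Nags was called in no comparison, and Slc25a13 was called lower on CDAHFD in WT. These are matches of letters in a window and no measurement of binding.

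Across the 4 groups the NDKO livers stood apart. Cps1, Ass1, Asl and Arg1, which encode the first enzyme of the cycle and all its cytosolic steps, were higher in all 5 NDKO libraries than in any NDWT library, by 1.78-fold (Arg1) to 3.09-fold (Asl) in the fitted means. Otc and Slc25a13 had nearly the same level in both control diet groups. On CDAHFD no member was called between genotypes. FPKM summed over the 8 genes was 2223 ± 430 for NDWT and 4302 ± 737 for NDKO mice, and 1871 ± 188 and 2423 ± 205 for HFWT and HFKO (mean ± SD, n = 5), and the NDKO libraries (3429 to 5211 FPKM) did not overlap those of any other group. Together the members took 0.545% to 0.943% of all fragments in NDWT and 1.10% to 1.66% in NDKO.

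**Figure D1:**
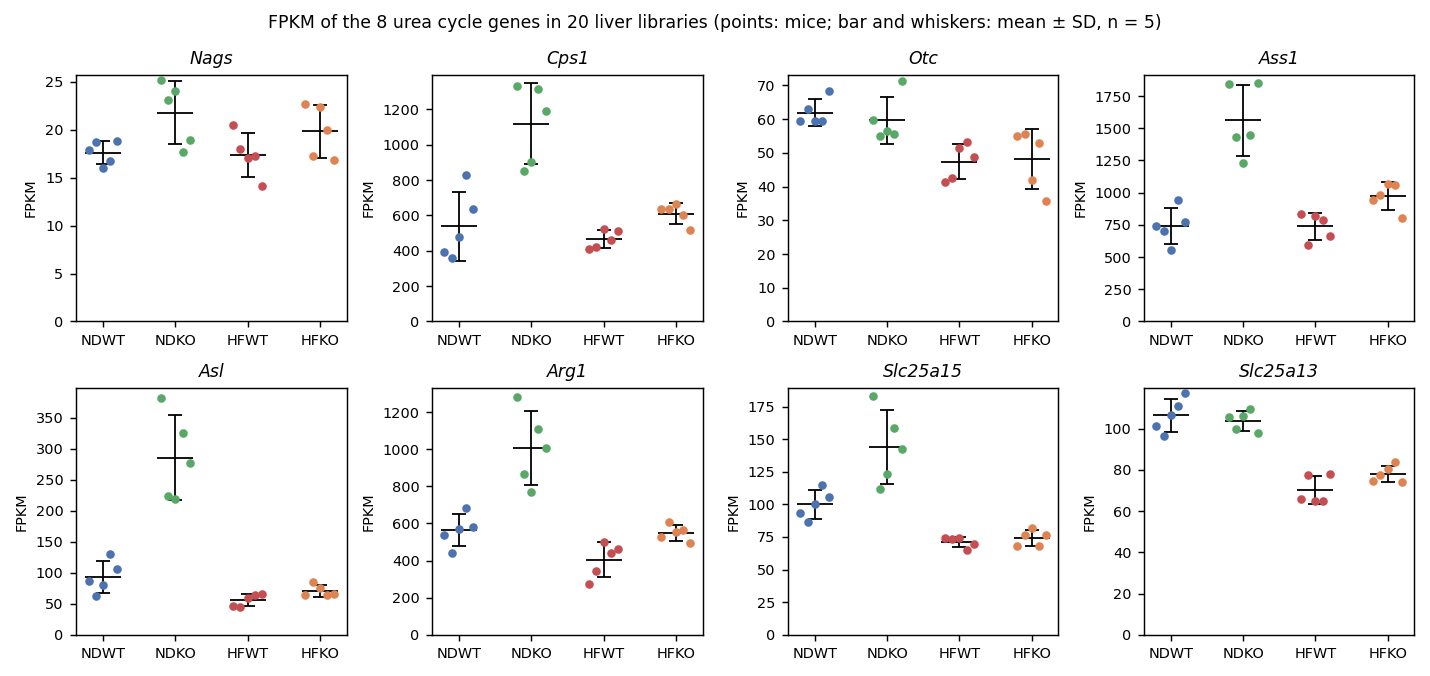
FPKM of the 8 urea cycle genes (vertical axes, linear from 0) in the 4 groups, with a point per mouse and the mean ± SD of 5 mice in black. Ass1, Asl, Cps1 and Arg1 of the 5 NDKO mice lie above all NDWT mice, while Otc and Slc25a13 of the control diet groups overlap.

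Nags had the lowest level of the 8 genes in every group. Its FPKM was 17.9, 18.7, 16.0, 16.8 and 18.8 in the NDWT mice (replicates 1 to 5, as in all such lists here), 25.2, 23.1, 24.1, 17.6 and 19.0 in NDKO. The HFWT mice had 20.5, 18.0, 17.1, 17.3 and 14.1 FPKM and the HFKO mice 22.7, 17.3, 22.4, 20.0 and 16.8 FPKM. All 4 groups overlapped.

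Cps1, the enzyme of the rate-limiting step, was among the 3 most abundant members in every group. It stood at 391, 359, 479, 830 and 636 FPKM in NDWT and at 1335, 853, 902, 1315 and 1192 FPKM in NDKO. In HFWT the values were 410, 424, 525, 459 and 511 FPKM, and in HFKO 635, 639, 666, 601 and 515 FPKM. The NDWT mice covered a 2.31-fold range, the widest of any member in any group, and their highest mouse still lay below the lowest NDKO mouse.

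Otc, the X-linked gene of ornithine transcarbamylase, was steady by comparison on control diet. The 5 NDWT mice had 59.6, 62.9, 59.4, 59.6 and 68.4 FPKM, the NDKO mice 59.6, 55.1, 56.5, 55.5 and 71.5 FPKM, the HFWT mice 41.2, 42.6, 51.3, 53.1 and 48.9 FPKM and the HFKO mice 55.0, 55.6, 41.9, 53.0 and 35.8 FPKM. All HFWT values were below all NDWT values, whereas HFKO and NDKO overlapped.

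Of the carriers, Slc25a15 had 93.1, 86.2, 100.5, 115 and 106 FPKM in NDWT and 183, 112, 123, 159 and 142 FPKM in NDKO. On CDAHFD it had 73.9, 73.2, 74.6, 64.7 and 69.8 FPKM in HFWT and 68.2, 76.8, 82.2, 67.8 and 76.7 FPKM in HFKO, below every control diet library. Slc25a13 had 101, 96.6, 107, 111 and 117 FPKM in NDWT, 106, 100.1, 106, 110 and 97.9 FPKM in NDKO. On CDAHFD the HFWT mice had 65.7, 77.7, 65.0, 65.0 and 77.8 FPKM and the HFKO mice 74.8, 77.4, 80.5, 83.7 and 74.0 FPKM. Its values split by diet without overlap and not by genotype. The second liver carrier of each kind was far lower: Slc25a12 (aralar, the other aspartate carrier) at 2.15 to 4.85 FPKM, and Slc25a2 (ORC2, the other ornithine carrier) at 0 to 0.351 FPKM.

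Ass1 had the highest mean of the 8 genes in each group. It was read at 743, 699, 551, 943 and 768 FPKM in NDWT and 1840, 1435, 1227, 1447 and 1852 FPKM in NDKO. On CDAHFD the WT mice had 831, 593, 818, 784 and 666 FPKM and the TSP-1 null mice 939, 985, 1069, 1061 and 806 FPKM. The lowest NDKO value was above every value of the other groups. Of the 31-base words in Ass1 transcripts, 43.1% also occur in Gm5424, a processed pseudogene of Ass1 on chromosome 10, so part of the reads can be split between them. Gm5424 was listed at 2.72% to 4.82% of the Ass1 FPKM and had the same calls (log2FC 1.23 for NDKO against NDWT, FDR 0.000133) except in the null diet comparison, where its log2FC was −0.58 (FDR 0.00443), just inside the fold threshold. No other member shared more than 0.554% of its words with another gene.

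Asl moved over the widest range of all members. The NDWT mice had 86.8, 62.0, 79.6, 130 and 107 FPKM, and the NDKO mice 381, 224, 219, 325 and 278 FPKM. On CDAHFD the values were 45.8, 44.9, 59.8, 63.5 and 65.7 FPKM in HFWT and 63.7, 85.2, 76.1, 63.9 and 65.0 FPKM in HFKO. Every NDKO library was above every other library, and the CDAHFD groups overlapped.

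Arg1, which closes the cycle, had 538, 442, 570, 683 and 583 FPKM in NDWT and 1281, 870, 770, 1111 and 1007 FPKM in NDKO. In HFWT it had 273, 344, 501, 441 and 464 FPKM and in HFKO 528, 607, 552, 564 and 493 FPKM. Its paralog Arg2, the mitochondrial arginase, lay at 0 to 0.484 FPKM and did not pass the filter.

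In order of mean FPKM, Ass1 was followed by Arg1 (563 ± 86.8) and Cps1 (539 ± 195) in NDWT, and by Cps1 and Arg1 in the other groups, and in each group the ranges of Cps1 and Arg1 overlapped. Slc25a13, Slc25a15 and Asl came next with overlapping ranges in NDWT, HFWT and HFKO, and Otc and Nags were last. In NDKO, Asl (285 ± 68.9 FPKM) left this cluster, and its lowest library was above the highest library of Slc25a15. These levels are per kilobase of the gene length in the table, which ran from 1476 bases for Arg1 to 5555 for Cps1.

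The genotype comparison on control diet was designed to ask what loss of TSP-1 does without the disease diet. Thbs1 itself did not bear out the labels here, and the values below compare libraries as labelled. Asl (log2FC 1.63, SE 0.18, FDR 2.64e-05), Cps1 (1.10, SE 0.18, FDR 0.000949), Ass1 (1.08, SE 0.14, FDR 9.18e-05) and Arg1 (0.83, SE 0.16, FDR 0.00215) rose in the libraries labelled TSP-1 null. A differentially expressed gene (DEG) is defined here by limma on log2(FPKM + 0.1), with an FDR (Benjamini-Hochberg, two-sided, over the 14524 tested genes) under 0.05 and a log2FC above 0.58 in size. These 4 DEGs of 8 stand beside 1.74% of all tested genes called higher. All 4 were also without overlap between the groups, as were 2.33% of tested genes in that direction. Slc25a15 passed the FDR but not the fold threshold (log2FC 0.51, FDR 0.00485). Nags did not pass (log2FC 0.29, FDR 0.0945). Otc and Slc25a13 had log2FC of −0.06 (95% interval −0.30 to 0.17) and −0.03 (−0.18 to 0.11). No member was lower by the DEG rule (3.03% of genes) or at an unadjusted limma p under 0.05 (19.4% of genes). The median log2FC of the members was 0.67, against −0.07 over all tested genes. In whole tissue, more cells of a type and more RNA per cell cannot be told apart. The 8 hepatocyte markers had no DEG by limma in this comparison, and their summed FPKM was 34305 to 42764 in NDWT and 37882 to 46560 in NDKO.

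On CDAHFD the libraries labelled TSP-1 null and WT were compared in the same way. No member was a DEG, higher (0.165% of all genes) or lower (0.330%). At an unadjusted limma p under 0.05, Arg1, Ass1, Cps1 and Slc25a13 were above WT (4 of 8 members, 2.97% of all genes) and none was below (14.2%). The log2FC was 0.47 for Arg1 (95% interval 0.14 to 0.80, FDR 0.137), 0.40 for Ass1 (0.11 to 0.70, FDR 0.155), 0.39 for Cps1 (0.0062 to 0.78, FDR 0.284) and 0.35 for Asl (−0.04 to 0.73, FDR 0.337). Otc (0.01), Slc25a15 (0.06), Slc25a13 (0.16) and Nags (0.19) were smaller. Every member overlapped between HFWT and HFKO. The median of the members was 0.27, against −0.10 over all tested genes. Hepatocyte markers summed to 29219 to 42727 FPKM in HFWT and 39678 to 51905 FPKM in HFKO, with none of 8 called and a median log2FC of 0.22, and when libraries were scaled to these markers Nags, Otc, Slc25a13 and Slc25a15 turned to negative values. Their part in the result was not tested.

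**Figure D2:**
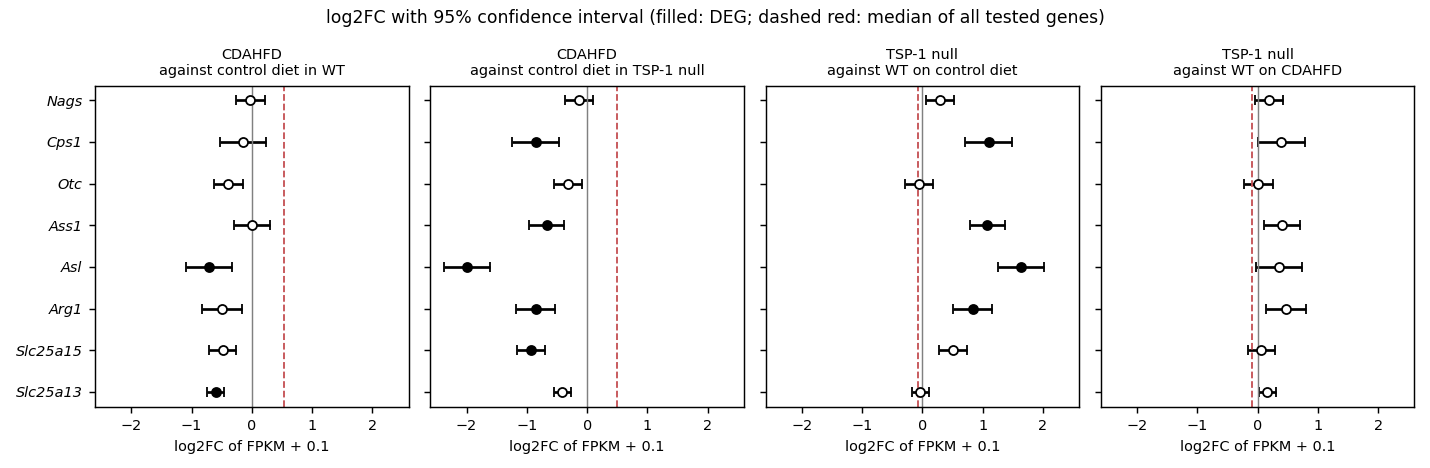
log2FC of log2(FPKM + 0.1) for each gene (points) with 95% confidence intervals (whiskers) in the 4 comparisons, with filled points for DEGs and a dashed red line at the median of the 14524 tested genes. The 8 genes lie to the left of the red line in both diet comparisons and to its right in both genotype comparisons.

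The diet comparison in WT mice gave few calls. Asl (log2FC −0.71, SE 0.18, FDR 0.00189) and Slc25a13 (−0.60, SE 0.07, FDR 1.68e-07) fell on CDAHFD, 2 of 8 members where 4.62% of all tested genes were called lower. Both lie near the fold threshold, and without NDWT replicate 4 Asl was no longer called, nor was Slc25a13 without HFWT replicate 3 or 4 or NDWT replicate 5. Otc, Slc25a15 and Slc25a13 were lower without overlap (5.70% of genes). Arg1 (−0.50, FDR 0.00801), Slc25a15 (−0.49, FDR 0.000522) and Otc (−0.39, FDR 0.00421) passed the FDR and not the fold threshold. Cps1 (−0.15, 95% interval −0.53 to 0.24), Nags (−0.03, −0.26 to 0.21) and Ass1 (0.00, −0.29 to 0.30) did not pass. No member was called higher, by the DEG rule (44.1% of genes) or at an unadjusted limma p under 0.05 (65.7%).

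In the mice labelled TSP-1 null, 5 members fell on CDAHFD, and of these the interaction given below passed for Asl alone. Asl (log2FC −1.99, SE 0.18, FDR 1.37e-08), Slc25a15 (−0.93, SE 0.11, FDR 3.11e-07), Arg1 (−0.86, SE 0.16, FDR 7.29e-05), Cps1 (−0.85, SE 0.18, FDR 0.000394) and Ass1 (−0.67, SE 0.14, FDR 0.000284) fell, 5 of 8 members where 4.00% of all genes were called lower. On the linear scale Asl was 3.97-fold lower and Ass1 1.59-fold lower. These 5 and Slc25a13 were lower without overlap (6 of 8 members, 5.03% of genes). Slc25a13 (−0.41, FDR 2.11e-05) and Otc (−0.32, FDR 0.0160) passed the FDR alone, and Nags did not (−0.13, FDR 0.301). None was called higher by the DEG rule (41.9% of genes) or at an unadjusted limma p under 0.05 (65.5%). Under quantile normalization Arg1 (−0.37), Cps1 (−0.25) and Ass1 (0.02) were no longer called.

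FPKM is a share of the library, and on CDAHFD the median of all tested genes stood at a log2FC of 0.53 for WT mice and 0.50 for those labelled TSP-1 null. Relative to that shift, all 8 members were below the typical gene in both diet comparisons, with member medians of −0.44 and −0.76 before and −0.97 and −1.26 after the shift is taken off. With median of ratios scaling, which sets the typical gene near 0, 7 members were DEGs and lower in the WT comparison, and 8 were in the TSP-1 null comparison. Ass1 is the exception in WT, with a log2FC of −0.56, and under quantile normalization it was positive in both genotypes (0.44 and 0.02). The genotype values on control diet moved little, from 1.58 to 1.70 for Asl over the 4 scalings.

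**Figure D3:**
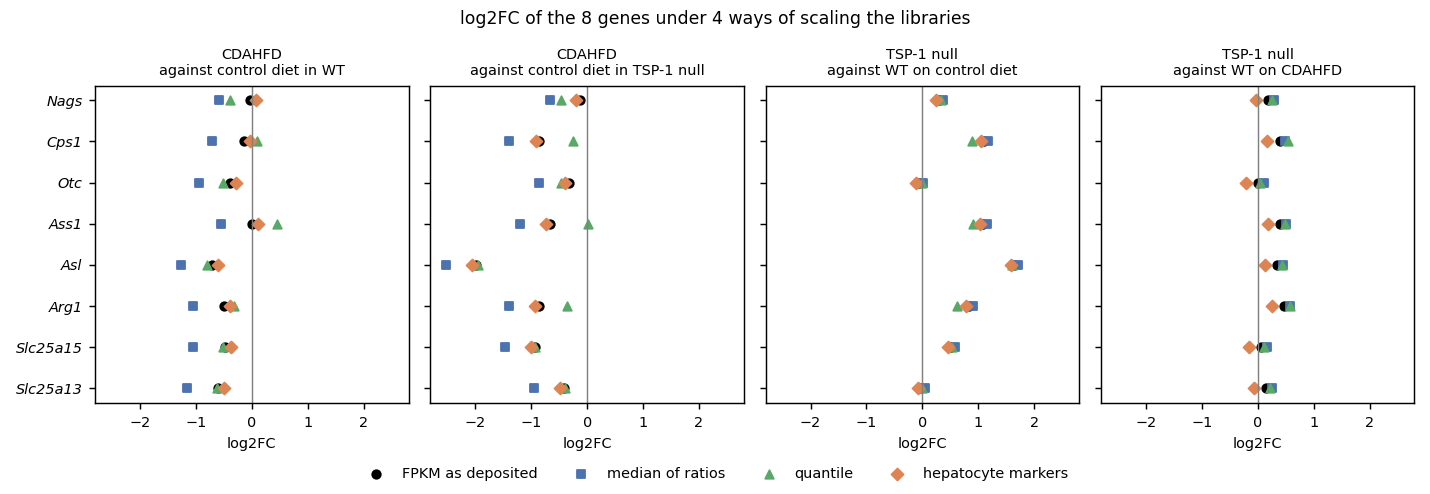
log2FC (horizontal axes) of the 8 genes in the 4 comparisons with FPKM as deposited, median of ratios scaling, quantile normalization and scaling to 8 hepatocyte markers (symbols). The diet values move left with median of ratios scaling, and Ass1 of WT mice runs from −0.56 to 0.44, while Asl on control diet stays from 1.58 to 1.70 between genotypes.

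Markers of other cell types moved with the diet, where 44.1% (WT) and 41.9% (TSP-1 null) of all tested genes were called higher. Among macrophage markers 10 of 12 tested rose in both diet comparisons and Clec4f, of resident Kupffer cells, fell, and their summed FPKM went from 143 to 193 in NDWT and 134 to 220 in NDKO to 1163 to 1548 in HFWT and 711 to 1492 in HFKO. Retnla, which was not tested, was at 0 in all NDKO libraries but had at most 2 fragments in any library. All 7 stellate cell markers rose in both comparisons (16.1 to 22.7 summed FPKM in NDWT, 119 to 251 in HFWT), as did 5 of 5 tested cholangiocyte markers (15.2 to 18.0 in NDWT, 292 to 488 in HFWT), 3 of 3 neutrophil markers and 5 of 6 T cell markers. Of 7 endothelial markers 2 were called higher in WT mice and 3 in those labelled TSP-1 null, near the share of all genes, and their median was −0.47 and −0.17 relative to all genes. Of the 8 hepatocyte markers Fgb fell in WT and Hpx rose in TSP-1 null mice, and none was at 0 in any library. The part of these cells in the lower urea cycle values on CDAHFD was not tested. On control diet, between genotypes, only Trem2 (higher) and Acta2 (lower) were called among all markers of macrophages, neutrophils, stellate, endothelial and bile duct cells and T cells.

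The interaction subtracts the genotype effect on control diet from that on CDAHFD. Asl passed it (log2FC −1.28, SE 0.26, FDR 0.0257), 1 of 8 members where 0.310% of all genes were called lower. This call is close to its threshold: it was lost without HFKO replicate 1 or 4, HFWT replicate 4, NDKO replicate 4 or NDWT replicate 3, with FDR from 0.0501 to 0.0550. Cps1 (−0.71, FDR 0.196), Ass1 (−0.68, FDR 0.106), Slc25a15 (−0.45, FDR 0.167) and Arg1 (−0.36, FDR 0.476) did not pass, so for them it was not shown that the genotype effect depends on the diet. Otc (0.07), Slc25a13 (0.19) and Nags (−0.11) did not pass either. No member was called higher by the DEG rule (0.337% of genes) or at an unadjusted limma p under 0.05 (6.97%). The diet comparisons share their libraries with the genotype comparisons, and the same NDKO values enter the higher control diet and the lower CDAHFD results.

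In some groups several members were highest or lowest in the same mouse. Among the NDWT mice, replicate 4 had the highest Cps1, Ass1, Asl, Arg1 and Slc25a15 and replicate 2 the lowest Cps1, Asl, Arg1, Slc25a13 and Slc25a15. NDKO replicate 1 was highest for Cps1, Asl, Arg1, Nags and Slc25a15, and HFKO replicate 5 was lowest for 6 of the 8 genes. Other mice were mixed: HFWT replicate 1 was highest for Ass1 and Nags and lowest for Cps1, Otc and Arg1, and NDKO replicate 5 was highest for Otc and Ass1 and lowest for Slc25a13. In NDWT the highest mouse was 1.15-fold above the lowest for Otc and 1.21-fold for Slc25a13, against 2.31-fold for Cps1 and 2.10-fold for Asl. In HFKO Otc had the widest range of the 8 genes (1.55-fold, against 1.29-fold for Cps1 and 1.34-fold for Asl), while Slc25a13 (1.13-fold) had the narrowest.

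**Figure D4:**
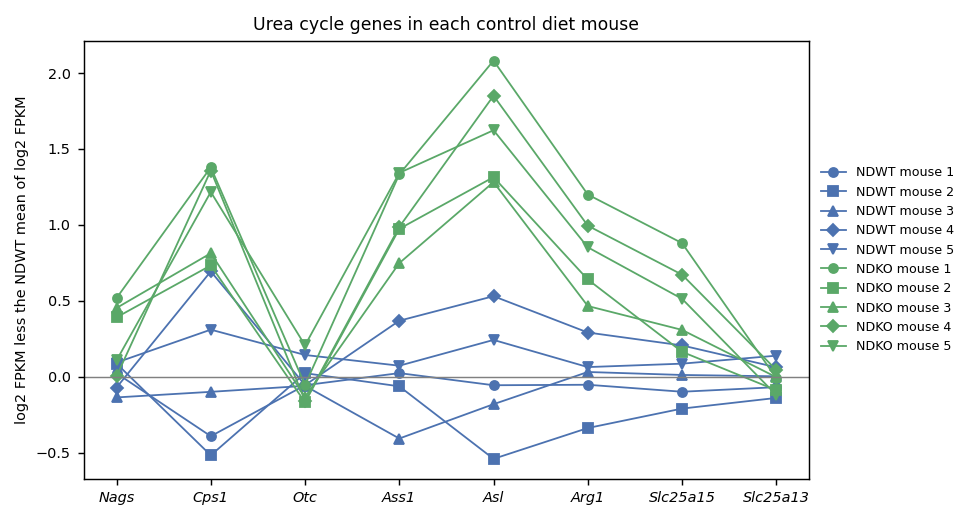
log2 FPKM of each gene less the NDWT mean of log2 FPKM (vertical axis), with a line per control diet mouse (blue NDWT, green NDKO). The NDKO lines rise above the NDWT lines at Cps1, Ass1, Asl and Arg1 and meet them at Otc and Slc25a13, and NDWT replicate 4 lies highest of its group from Ass1 to Slc25a15.

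The members did not move in step, as ratios between them show. The ratio of Asl to Ass1 FPKM was 0.125 ± 0.0230 in NDWT and 0.183 ± 0.0322 in NDKO, and 0.0767 ± 0.0157 and 0.0733 ± 0.0104 on CDAHFD in WT and TSP-1 null mice (mean ± SD, n = 5), and NDKO lay above all other libraries (0.150 to 0.225, against at most 0.144). The ratio of Otc to Cps1 was 0.126 ± 0.0401 in NDWT and 0.0548 ± 0.0106 in NDKO, and 0.102 ± 0.00789 and 0.0789 ± 0.0118 in HFWT and HFKO, and NDKO (0.0422 to 0.0646) lay below all of NDWT and HFWT. Asl was 6.59% of the summed member FPKM in NDKO and 4.13% in NDWT, and 2.98% and 2.92% in HFWT and HFKO. These ratios were not tested.

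Genes around the supply of ammonia, glutamate, aspartate and bicarbonate were read next, from a list of 21 of which 20 were tested. Some of them, such as Fh1 and Glul, do not themselves feed nitrogen into the cycle. On control diet 5 rose in the libraries labelled TSP-1 null (1.74% of all genes) and none fell (3.03%), with a list median log2FC of 0.0039. The largest was Got1, the cytosolic aspartate aminotransferase (91.6 ± 35.7 FPKM in NDWT, 359 ± 92.7 in NDKO, log2FC 2.01, FDR 3.89e-05), followed by Slc25a22, a mitochondrial glutamate carrier (0.73), Gls2, the liver glutaminase (0.72), Gpt2, a mitochondrial alanine aminotransferase (0.70, not called without NDWT replicate 2), and Fh1, fumarate hydratase (0.70). On CDAHFD Got1 fell in TSP-1 null mice (−2.27, FDR 6.63e-08) to 72.5 ± 9.28 FPKM, and it passed the interaction (−1.77, FDR 0.0183), as Asl did. Fh1 fell in both diet comparisons (−0.77 in WT, −1.30 in TSP-1 null), and so did Gls2 (−0.74 and −0.71). Between genotypes on CDAHFD Gls2 was higher (0.75, FDR 0.0370), a call lost in 8 of the fits that leave out 1 mouse, those without HFWT replicate 1, 2, 3 or 5 or HFKO replicate 1, 2, 3 or 4. Glul, glutamine synthetase, which takes up the ammonia that escapes the cycle, rose on CDAHFD in WT (336 ± 36.3 to 684 ± 166 FPKM, log2FC 1.00, FDR 1.24e-06, and 0.44 without a call under median of ratios scaling) and was lower in HFKO than in HFWT (−0.66, FDR 0.0175, not called without HFWT replicate 1). Rhbg, an ammonia transporter, also rose in both diet comparisons (1.80 and 1.36) and was lower in HFKO than in HFWT (−0.87, FDR 0.0231, lost without HFWT replicate 1, 2 or 3 or HFKO replicate 1, 3 or 4). Glud1, glutamate dehydrogenase, was called in none of these comparisons (log2FC −0.18 to 0.35). Slc25a12 rose in WT on CDAHFD (0.68, FDR 7.18e-05), a value that fell to −0.06 under quantile normalization.

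**Figure D5:**
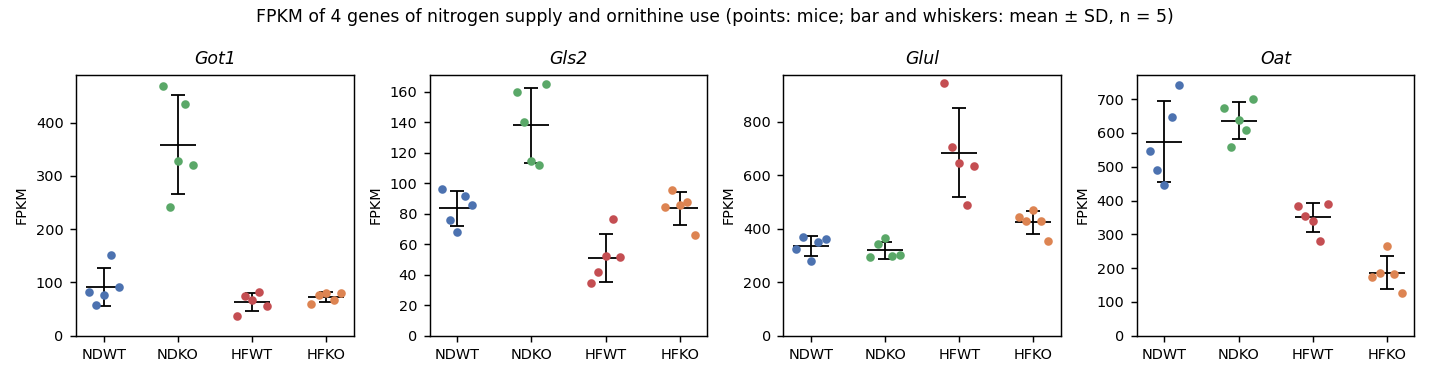
FPKM (vertical axes, linear from 0) of Got1, Gls2, Glul and Oat in the 4 groups, with a point per mouse and the mean ± SD of 5 mice in black. Got1 is highest in the NDKO mice, Glul in the HFWT mice, and Oat is lowest in the HFKO mice.

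Of 19 genes of arginine and ornithine use, 15 were tested. Oat, ornithine aminotransferase, which removes ornithine from the cycle, fell on CDAHFD in both genotypes (574 ± 120 to 350 ± 44.1 FPKM in WT, log2FC −0.70, FDR 0.000553, and 636 ± 54.8 to 187 ± 49.2 FPKM in TSP-1 null, −1.80, FDR 6.91e-09). The WT value was −0.53 and not called under quantile normalization. It was lower in HFKO than in HFWT (−0.93, FDR 0.00476) and passed the interaction (−1.10, FDR 0.0257), although that call was lost without NDWT replicate 3, NDKO replicate 4 or HFKO replicate 1 or 2. Gatm, of creatine synthesis, was higher in TSP-1 null labels on both diets (0.75, FDR 0.00169, and 1.03, FDR 0.000303) and rose on CDAHFD in both genotypes (1.00 and 1.29). Slc7a2, a carrier of cationic amino acids, was higher in NDKO than in NDWT (0.93, FDR 0.00722). In all, 6 genes of this list rose and 1 fell in WT on CDAHFD, and 8 rose and 3 fell in TSP-1 null mice, of 15 tested. Over all tested genes 44.1% rose and 4.62% fell in WT, and 41.9% rose and 4.00% fell in TSP-1 null mice, and the list median was −0.25 and 0.09 relative to all genes, so the rises were near those of genes at large.

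A list of 18 genes known to act on urea cycle genes held transcription factors, coactivators and the glucagon receptor gene. On control diet 3 rose in the libraries labelled TSP-1 null (1.74% of all genes) and none fell (3.03%). Ppargc1a, the coactivator PGC-1α, went from 1.16 ± 0.504 to 2.84 ± 0.680 FPKM (log2FC 1.28, FDR 0.00219), Cebpd from 4.57 ± 0.970 to 10.4 ± 2.81 FPKM (1.15, FDR 0.00223) and Foxa3 from 20.8 ± 6.44 to 33.2 ± 6.95 FPKM (0.70, FDR 0.0202). The call of Foxa3 was lost without NDWT replicate 3 or NDKO replicate 1 or 3. On CDAHFD no gene of this list was called between genotypes by limma. The diet comparisons had 3 of 18 higher and 2 lower in WT (44.1% and 4.62% of all genes) and 2 higher and 1 lower in TSP-1 null mice (41.9% and 4.00%), with list medians of −0.56 and −0.66 relative to all genes. Cebpd was among the higher in both, at 19.4 ± 5.69 FPKM in HFWT and 18.7 ± 4.15 FPKM in HFKO. Ppargc1a was called higher in WT only, a value that changed sign under quantile normalization, and Foxa3 was called in neither. Trp53 was the other gene called higher in both. Those called lower were Creb3l3 and Ppara in WT and Ppara in TSP-1 null mice. Mean Ppara was 76.6 FPKM in NDWT and 32.9 in HFWT, and 57.4 in NDKO and 36.8 in HFKO. Mean Creb3l3 was 201 FPKM in NDWT and 113 in HFWT.

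The urea cycle belongs to periportal hepatocytes, and other periportal markers were set beside it. Of 9, Sds (serine dehydratase, log2FC 1.68, FDR 0.000613), Hal (histidine ammonia lyase, 0.98, FDR 0.00283), Pck1 (phosphoenolpyruvate carboxykinase, 0.82, FDR 0.00832) and Gls2 rose in NDKO against NDWT (1.74% of all genes), and none fell (3.03%). The median of this list was 0.48. Between genotypes on CDAHFD the list median was also 0.48, with Gls2 alone called higher (0.165% of all genes) and none lower (0.330%). None of the list passed the interaction, where its median was −0.02. On CDAHFD 4 fell and 2 rose in WT (4.62% and 44.1% of all genes), and 5 fell and 2 rose in TSP-1 null mice (4.00% and 41.9%). Hal (−0.78 and −1.10), Pck1 (−0.85 and −1.03), Gls2 and Cyp2f2 were lower in both, and Cdh1 and Aldh1b1 were higher in both. Cdh1 had a mean FPKM of 7.24 in NDWT, 38.5 in HFWT, 8.69 in NDKO and 36.1 in HFKO. For Aldh1b1 the means of these groups were 19.7, 66.3, 28.6 and 90.4 FPKM, in the same order. Under quantile normalization none of the 3 calls of Pck1 was kept (0.60 between genotypes on control diet, −0.52 and −0.27 for diet). Of 10 pericentral markers, only Slc1a2, a glutamate transporter, was called between genotypes on control diet (−1.31, FDR 8.05e-05). On CDAHFD 7 rose and 1 fell in WT, and 5 rose and 3 fell in TSP-1 null mice, with list medians of 0.31 and 0.06 relative to all genes, against −0.98 and −1.21 for the periportal list. Slc1a2, Oat, Glul and Rhbg were lower in HFKO than in HFWT. Sds, Hal and Gls2 are themselves enzymes of amino acid breakdown, and Pck1 acts in gluconeogenesis.

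The genes most like each member were ranked by the root mean square difference of log2(FPKM + 0.1), centred over the 20 libraries, among all tested genes. Cps1 and Arg1 were near each other: Arg1 ranked first for Cps1 (0.23 log2 units) and Cps1 had rank 3 for Arg1, after Amdhd1 (0.21), of histidine breakdown, and Sdsl. Ass1 was closest to Gm5424 (0.17), with which it shares sequence, and to Etnk2 and Cps1. Asl was closest to Cth (0.27), the cystathionine gamma lyase, and Got1 (0.28), and then Nnmt. Otc was closest to Ugt3a2 (0.12), Nags to Oaz1-ps (0.10), Slc25a13 to Tmem135 (0.08) and Slc25a15 to Atl2 (0.17). Among the genes ranked for Cps1, Nags was at 384 and Otc at 499 of 14524, and among those ranked for Otc and for Nags, which have many closer genes, Cps1 was at 6240 and 7567. These 20 libraries fall in 4 groups, so likeness follows the group means.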

How the data were processed

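Liver RNA of 20 mice, 5 per group, was sequenced after poly(A) selection, with groups as labelled. The lobe is the right medial one per the series text, but the right lateral one in the paper's methods. The authors aligned reads with STAR 2.5.2 and counted them with featureCounts (Subread 1.5.1) within QuickRNASeq, and the deposited FPKM table holds a value per gene and library without further normalization. The processing notes name GRCh38, a human build, but 99.8% of 37607 gene identifiers matched GRCm38 positions in GENCODE M21. Fragments were recovered from FPKM and gene length, and 100% of the checked values were whole within 0.1. On 1 kb, 3 fragments are 0.129 to 0.192 FPKM. Such floors cover counting error only.

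limma 3.58.1 (R 4.3.3) was run on log2(FPKM + 0.1) with all libraries in 1 fit, and all tests are two-sided. The fit was tested on simulated data with 200 changed genes. Replicates are separate mice. Figures were made with Python 3.11.15 and matplotlib 3.10.9. Members, gene lists and tests were chosen with earlier results of these data known. Beyond the members, named genes are DEGs of the lists in a genotype comparison or the interaction (at most the 6 of lowest FDR), paralogs of members, Glul, Gls2, Glud1, Thbs1 and the 3 genes most like each member. Azin2, Adgre1 and Chil3 were matched under older symbols, and Tf was matched as Trf. Gm11586 and Gm5424 were added because they share reads with members. Marker genes outside this rule, and Creb3l3, Ppara and Trp53, were named after their values were seen. Alternatives were pseudocounts of 0.01 and 1, other filters, 3 other scalings, no fold threshold, fits of only the groups compared, no trend in eBayes, a block for the replicate number and each mouse left out.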

Additional observations from a re-analysis of the deposited data

Results flagged for a closer look

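NDKO replicate 5 stood apart from its group in Otc, at 71.5 FPKM, with a gap to the next mouse that was 0.724 of the group range. HFKO replicate 5 stood apart in Gatm (23.3 FPKM, 0.834 of the range) and in Thbs1 (4.40 FPKM, 0.801 of the range). Chance gives such a flag in about 1 of 20 groups.

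The genotype effect differed between the diets, by the limma interaction test, for Asl (log2FC −1.28, FDR 0.0257), Got1 (−1.77, FDR 0.0183), Oat (−1.10, FDR 0.0257) and Thbs1 (−2.66, FDR 0.00230). Asl and Got1 were higher in NDKO than in NDWT and uncalled on CDAHFD, whereas Oat was uncalled on control diet and lower in HFKO.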

How the results depend on the processing

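The count of 4 members called higher between genotypes on control diet was 4 or 5 under every alternative run. The scaling of the libraries moved the diet counts most. In TSP-1 null mice 5 members were called lower as deposited, 8 with median of ratios scaling and 2 with quantile normalization. In WT 2 were called lower as deposited, 7 with median of ratios scaling, 5 with no fold threshold and 1 with scaling to hepatocyte markers. Leaving out 1 mouse gave 1 to 3 lower in WT, and 0 to 1 in the interaction. The replicate block changed no count of members, and same-numbered mice did not deviate together (correlations of −0.13 to 0.08 over genes), so the numbers were not taken to pair the mice.

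Several values changed sign, most of them small. With median of ratios scaling these were Ass1 in the WT diet comparison (−0.56), Otc (0.015) and Slc25a13 (0.041) between genotypes on control diet, Glud1 in both diet comparisons (−0.51 in WT, −0.18 in TSP-1 null), Glul in the TSP-1 null diet comparison (−0.13) and between genotypes on control diet (0.0062), and Slc25a12 in the TSP-1 null diet comparison (−0.040). With quantile normalization they were Ass1 in the TSP-1 null diet comparison (0.017), Cps1 in WT (0.094), Ppargc1a in WT (−0.13, from a called 0.81) and Slc25a12 in both (−0.062 in WT, from a called 0.68, and −0.17 in TSP-1 null). With scaling to hepatocyte markers they were Nags in the WT diet comparison (0.083), Otc in the interaction (−0.11), and between genotypes on CDAHFD Nags (−0.035), Otc (−0.21), Slc25a13 (−0.067), Slc25a15 (−0.16), Glud1 (−0.10) and Slc25a12 (−0.084). Without 1 mouse, the WT diet values ran from −0.10 to 0.10 for Ass1, −0.28 to 0.027 for Cps1 and −0.088 to 0.047 for Nags, Otc on CDAHFD from −0.046 to 0.11, and Slc25a13 on control diet from −0.069 to 0.00073. The cause was not tested. Of the values recomputed for the members, 1178 kept direction and call, 18 gained and 12 lost a call and 24 changed sign, and of those for the other named genes 1703 kept both, 5 gained and 46 lost a call and 10 changed sign.

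With 5 mice per group a log2FC between groups has an SE of 0.07 to 0.18 for the members, and differences smaller than these errors were not detectable. Larger differences could also go uncalled, because a call needed an FDR under 0.05 and a log2FC above 0.58 in size. An uncalled difference is therefore not shown to be absent.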
